A study of Mus musculus with 12 samples.

Results

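The genes described here are the neutrophil-attracting CXC chemokines Cxcl1, Cxcl2, Cxcl3, Cxcl5 and Cxcl15 and the receptor Cxcr2, as measured in whole mouse lung 8 h after abdominal surgery. They were chosen by symbol: every probe set whose platform annotation gave 1 gene symbol, and that symbol or an older synonym was one of the 6, was taken, which gave 9 probe sets. Where a gene had several, the probe set whose log2 signal averaged highest over the 12 arrays stands for it. The 6 genes are 6 of 18161 genes with such a probe set, and 5 of the 6 were among the 11849 genes whose representative passed the filter on low values described below. Cxcl5 did not pass it and is given by its signals.

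Total RNA from lung was hybridised to an Affymetrix expression array, with 3 arrays in each of 4 groups. The groups were mice labelled PPTA knockout after cecal ligation and puncture (CLP), mice labelled PPTA knockout after sham surgery, wild-type mice after CLP and wild-type mice after sham surgery. CLP opens the cecum to the abdomen and is a standard model of sepsis. Tac1, once called PPTA, is the precursor gene of the neuropeptide substance P, and by their labels the groups set sepsis in mice with the gene against sepsis in mice without it. The ages were 8 to 10 weeks in the labels. Balb/c was named as the strain of the wild-type mice and no strain was named for the others, so strain and genotype cannot be told apart. The sources used here do not say how the knockout was made. The labels speak of triplicates without saying that 3 animals stand behind them, so a p-value here covers the spread of these samples alone, and that spread may be technical.

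Chemokines of this family carry a short Glu-Leu-Arg motif ahead of their CXC cysteines. CXCL1, CXCL2, CXCL3 and CXCL5 act through CXCR2, a G-protein-coupled receptor that neutrophils carry at high density. Cells that sense bacterial products or interleukin-1 make CXCL1, CXCL2 and CXCL3 quickly, largely through NF-kappaB, and the messages are short-lived. CXCL5 is made by lung epithelium among other cells, and CXCL15, known as lungkine in the mouse, is a product of airway and alveolar epithelium there.

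Tac1 was measured first because it checks the labels. Its signal was 337 to 462 on the 3 knockout-labelled CLP arrays, 379 to 530 on the 3 knockout-labelled sham arrays, 3.95 to 16.1 on the wild-type CLP arrays and 2.80 to 8.34 on the wild-type sham arrays. It was therefore higher in the mice labelled as lacking it, by 5.70 ± 0.33 on the log2 scale after sham surgery and 4.97 ± 0.33 after CLP (limma, SE, adjusted p = 4.28e-07 and 1.06e-06). A second Tac1 probe set stayed between 1.26 and 16.0 on all 12 arrays. Where the probe sets lie relative to the deleted part is not known here, nor is whether the genotype labels were exchanged. Every direction between genotypes below follows the labels as deposited and would turn if they had been exchanged. The tissue label was borne out by surfactant, airway and alveolar genes: the summed signal of 7 alveolar type 2 markers was 43988 to 52349 on the 12 arrays, and that of 5 hepatocyte markers was 49.5 to 79.2. Arrays of the knockout-labelled groups differed more among themselves. Correlations of log2 signals within a group were 0.952 to 0.973 for knockout-labelled CLP and 0.937 to 0.981 for knockout-labelled sham, against 0.985 for each wild-type CLP pair and 0.983 to 0.985 for wild-type sham. Array 3 of knockout-labelled sham stood furthest from its group, with 646 probe sets at least 2-fold above and 758 at least 2-fold below both other arrays of the group, and results that rest on it are given without it too.

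The 250 bases before the annotated start of each gene are shown because the cluster holds neighbours that moved together and neighbours that did not. Sequences and positions are those of RefSeq on mouse GRCm38.p6; the promoter table matched 5 of the 6 genes, all on the plus strand, and Cxcl5 is named only. Capitals mark a kappaB match (GGGNNNTTCC on either strand, overlapping matches joined) or the letters TATAAA.
Cxcl1, chr5:90890995-90891244: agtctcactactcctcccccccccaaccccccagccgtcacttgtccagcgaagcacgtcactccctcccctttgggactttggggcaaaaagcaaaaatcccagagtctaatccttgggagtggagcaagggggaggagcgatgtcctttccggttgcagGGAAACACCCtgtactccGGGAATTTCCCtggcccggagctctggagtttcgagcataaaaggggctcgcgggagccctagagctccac
Cxcl2, chr5:90903649-90903898: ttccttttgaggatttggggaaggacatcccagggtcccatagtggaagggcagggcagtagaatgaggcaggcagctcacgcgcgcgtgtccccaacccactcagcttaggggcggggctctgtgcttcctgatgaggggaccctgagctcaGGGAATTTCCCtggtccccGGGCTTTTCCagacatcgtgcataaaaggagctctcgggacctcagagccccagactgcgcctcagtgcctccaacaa
Cxcl3, chr5:90785851-90786100: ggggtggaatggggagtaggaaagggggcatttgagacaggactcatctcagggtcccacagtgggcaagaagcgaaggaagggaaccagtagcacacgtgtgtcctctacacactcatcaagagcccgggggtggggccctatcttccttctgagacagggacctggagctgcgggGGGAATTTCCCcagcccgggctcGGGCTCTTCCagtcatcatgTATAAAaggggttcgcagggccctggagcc
Cxcl15, chr5:90794284-90794533: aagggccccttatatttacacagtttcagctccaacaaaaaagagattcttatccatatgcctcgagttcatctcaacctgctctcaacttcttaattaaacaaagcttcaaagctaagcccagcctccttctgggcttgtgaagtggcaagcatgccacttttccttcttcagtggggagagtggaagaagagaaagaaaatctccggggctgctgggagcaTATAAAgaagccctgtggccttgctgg
Cxcr2, chr1:74153744-74153993: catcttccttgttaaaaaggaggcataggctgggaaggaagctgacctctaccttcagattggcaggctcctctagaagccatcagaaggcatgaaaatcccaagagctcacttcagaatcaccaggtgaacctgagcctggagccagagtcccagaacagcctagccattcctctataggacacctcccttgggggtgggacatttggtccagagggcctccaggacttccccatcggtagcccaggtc

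In Cxcl1, Cxcl2 and Cxcl3 the same 11 letters, GGGAATTTCCC, matched the kappaB pattern on both strands, 71 to 61 bases before the start of Cxcl1, 97 to 87 before that of Cxcl2 and 73 to 63 before that of Cxcl3. Each of the 3 windows held a second kappaB match, GGAAACACCC on the minus strand in Cxcl1, GGGCTTTTCC in Cxcl2 and GGGCTCTTCC in Cxcl3. A kappaB match was found in 5.56% of 32851 RefSeq windows of 300 bases (250 before and 50 after the start), and the 11-letter stretch in 14 of them. TATAAA was found in the windows of Cxcl3 and Cxcl15, and in 13.6% of all windows. No kappaB letters were found in the Cxcl15 or Cxcr2 window, and none of the 5 windows held TGANTCA (an AP-1 pattern, in 7.81% of all windows) or TTGCNNAA (a C/EBP pattern, in 10.8%). These genes are related copies, so shared letters are not independent occurrences, and a match is a description of the sequence only.

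Cxcl2, Cxcl3 and Cxcl1 rose after CLP in the lungs of both genotypes, Cxcl2 and Cxcl3 by about 2 orders of magnitude and Cxcl1 by less. In what follows a level is the deposited signal in array units, a change is a difference of log2(signal + 3.47), with its SE from a limma model fitted to all 24574 probe sets that exceeded their array's median on 3 arrays or more, and a gene was called at a Benjamini-Hochberg adjusted p under 0.05 over all of them. Called higher after CLP were 3 of the 5 genes tested in knockout-labelled mice, beside 11.4% of the 11849 genes (19.9% were called lower), and the same 3 of 5 in wild-type mice, beside 1.1% of the genes (0.0591% lower). None of the 5 was called lower in either genotype.

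Cxcl2 (probe set 1449984_at), the ligand also known as MIP-2, had signals of 3517, 6947 and 6948 in knockout-labelled CLP lungs, against 124, 56.7 and 25.7 in knockout-labelled sham lungs. Wild-type CLP lungs had 7381, 7709 and 7230, against 75.6, 107 and 38.5 in wild-type sham lungs. Every CLP array lay above every sham array, and the lowest CLP value was that of knockout-labelled array 1. The change was 6.51 ± 0.46 in knockout-labelled mice, a 91.2-fold rise, and 6.70 ± 0.46 in wild-type mice, a 104-fold rise (limma, adjusted p = 9.96e-06 and 2.36e-05, n = 3 a group).

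Cxcl3 (1438148_at), a close relative of Cxcl2, had 726, 1402 and 1538 in knockout-labelled CLP lungs, against 3.33, 6.47 and 14.8 in knockout-labelled sham lungs. In wild-type lungs it had 783, 600 and 858 after CLP, against 6.88, 3.98 and 7.87 after sham surgery. All 6 sham values were below the median signal of their arrays (31.1 to 38.4 over the 12 arrays), and the table holds no detection calls. The rise was 6.76 ± 0.35 in knockout-labelled and 6.28 ± 0.35 in wild-type mice (limma, adjusted p = 1.10e-06 and 5.47e-06), which is 109-fold and 77.7-fold on this scale. With sham values this low the added 3.47 sets the size of the fold: over the other settings the change ran from 5.55 to 7.39 in knockout-labelled and from 5.01 to 6.95 in wild-type mice.

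Cxcl1 (1457644_s_at), also known as KC, had 1442, 4444 and 4138 in knockout-labelled CLP lungs, against 211, 113 and 49.9 in knockout-labelled sham lungs. Its wild-type signals were 947, 1156 and 1237 after CLP, against 160, 116 and 212 after sham surgery. Each CLP array was above each sham array of either genotype, and all 3 knockout-labelled CLP values were above the 3 wild-type CLP values. Between the CLP groups 31.8% of the 11849 genes were called, and the share without overlap was not counted. Cxcl1 rose by 4.76 ± 0.47 in knockout-labelled mice, 27.1-fold, and by 2.78 ± 0.47 in wild-type mice, 6.88-fold (limma, adjusted p = 6.54e-05 and 0.0149). The wild-type call was lost when wild-type CLP array 1, 2 or 3 or wild-type sham array 1 or 2 was left out (adjusted p up to 0.0935), with the change between 2.56 and 2.99.

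Affymetrix gives the suffixes _s_at and _x_at to probe sets that can bind more than 1 transcript, and 2 of the 3 Cxcl1 probe sets carry one. The third, 1419209_at, has neither, and had 1259, 3965 and 3843 in knockout-labelled CLP lungs, against 239, 83.3 and 50.5 in knockout-labelled sham lungs. Its wild-type signals were 873, 910 and 1039 after CLP, against 191, 173 and 229 after sham surgery. The rises were 4.68 ± 0.49 in knockout-labelled mice (adjusted p = 8.40e-05) and 2.23 ± 0.49 in wild-type mice, where it did not pass the threshold (limma, adjusted p = 0.0532). The dimmest Cxcl1 probe set, 1441855_x_at, gave 2.30 ± 0.30 and 1.17 ± 0.30 in the same order of genotypes (limma, adjusted p = 0.000333 and 0.118). The Cxcl1 rise in wild-type lung therefore passed the threshold on 1 of 3 probe sets and that in knockout-labelled lung on all 3. Both tests share 1 estimate of spread. The SD of log2 Cxcl1 was 0.91 and 1.01 in knockout-labelled CLP and sham lungs, against 0.20 and 0.43 in wild-type lungs. On all 3 probe sets each wild-type CLP value was above each wild-type sham value. The wild-type Cxcl1 call was kept in all 12 settings other than leaving out an array.

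**Figure D1:**
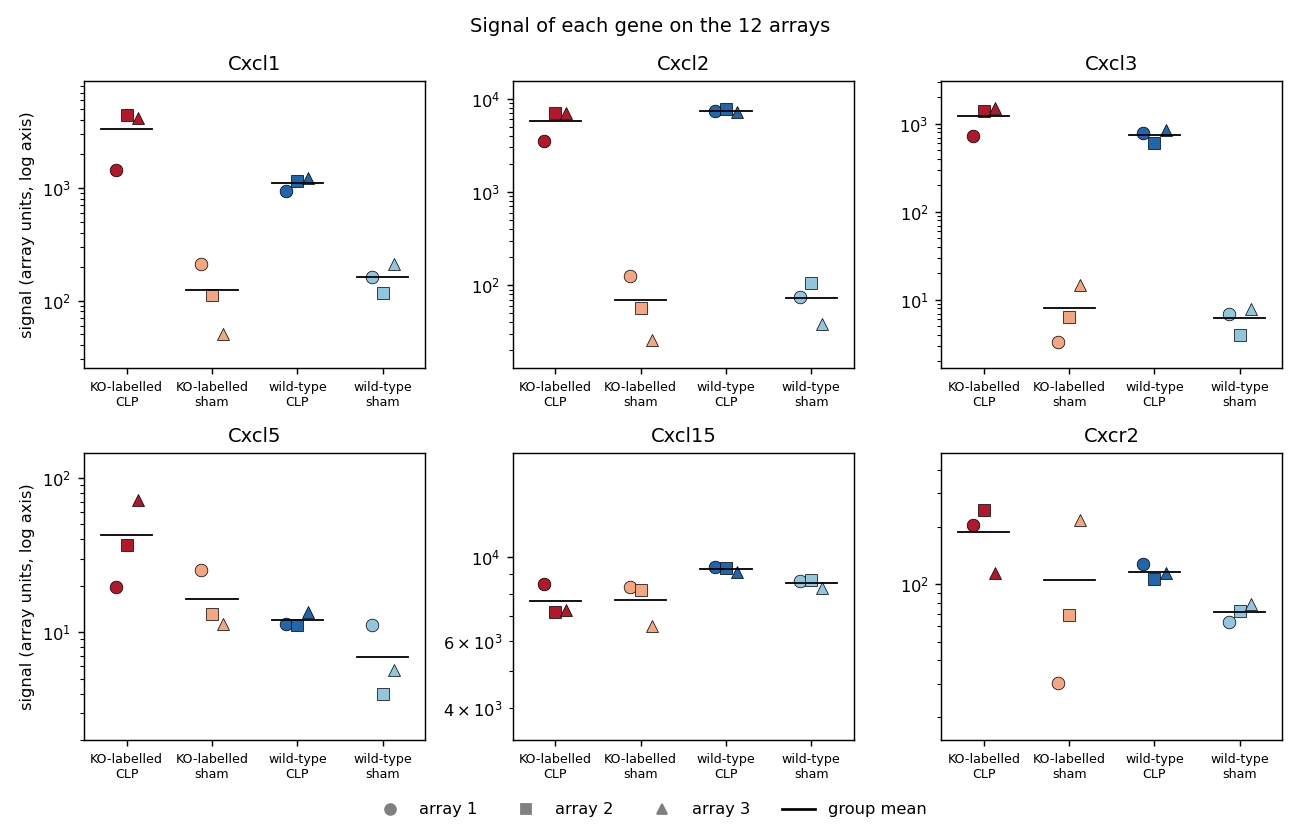
Signal of each gene's representative probe set on every array, on a log axis, with 3 arrays in each group and a line at the group mean. Cxcl2 and Cxcl3 lie above all sham values on every CLP array, the 3 knockout-labelled CLP values of Cxcl1 (1442 to 4444) lie above the wild-type CLP values (947 to 1237), and Cxcl15 stays between 6558 and 9401.

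Whether the response was equal in the genotypes was asked by the difference of the 2 responses, knockout-labelled minus wild-type. None of the 5 genes passed the threshold for it, beside 4.99% of the 11849 genes called in either direction. Cxcl1 had the largest difference of the 5, at 1.98 ± 0.67 (95% interval 0.53 to 3.43), with an unadjusted p of 0.0113 and an adjusted p of 0.107 in limma. The other Cxcl1 probe sets gave 2.45 ± 0.69 (1419209_at, adjusted p = 0.0640) and 1.12 ± 0.43 (1441855_x_at, adjusted p = 0.143). Without knockout-labelled CLP array 1, the lowest of its group, the Cxcl1 difference was 2.50 (limma, adjusted p = 0.0203). For the representative probe set that was the single array whose removal changed the call. With an array left out, 1419209_at was called in 2 of 12 fits and 1441855_x_at in 1 of 12.

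For Cxcl2 and Cxcl3 the differences of response were smaller, and neither was called. The difference was -0.19 for Cxcl2, with an interval of -1.60 to 1.22 (limma, adjusted p = 0.893), and 0.48 for Cxcl3, with an interval of -0.59 to 1.55 (adjusted p = 0.599). These intervals leave room for differences of up to 1.60 log2 units, so the responses of Cxcl2 and Cxcl3 are not shown to be equal. Changing the array left out moved the Cxcl2 difference between -0.72 and 0.35.

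**Figure D2:**
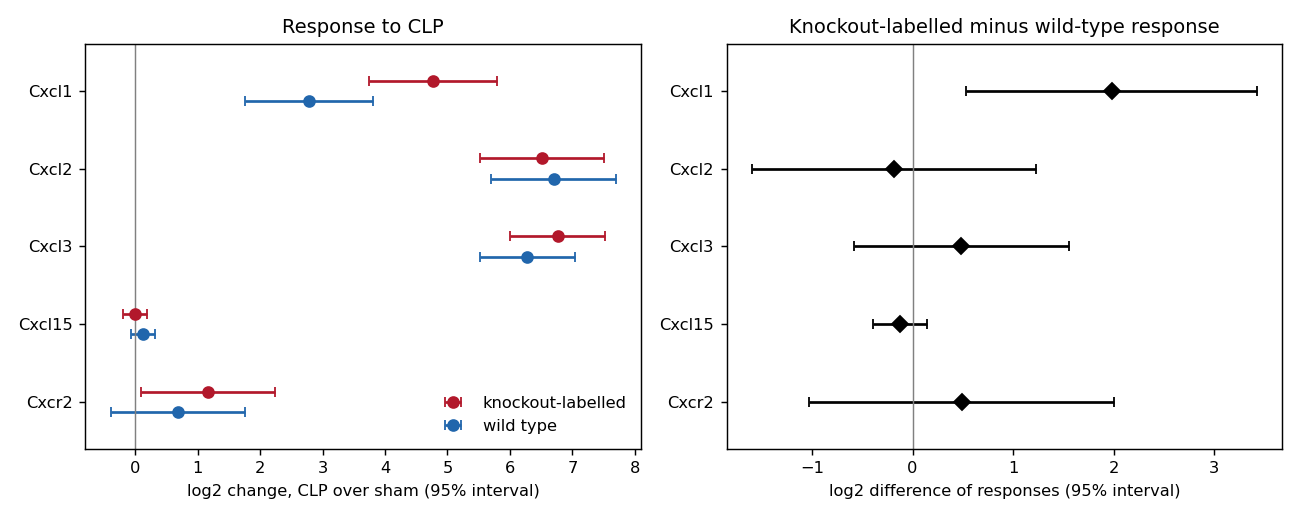
Left, log2 change after CLP over sham for the 5 genes tested, knockout-labelled above wild type; right, the difference of these responses, knockout-labelled minus wild type. Points are limma estimates from 3 arrays a group and bars their 95% intervals; the Cxcl1 interval on the right runs from 0.53 to 3.43 and the other 4 include 0, while no adjusted p was under 0.05.

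The 3 inducible ligands were also set against each other within each array. The log2 signal of Cxcl1 minus that of Cxcl2 was -1.28, -0.64 and -0.75 in knockout-labelled CLP lungs, against -2.96, -2.73 and -2.54 in wild-type CLP lungs. The groups did not overlap and their means differed by 1.85. Because 2 probe sets bind with unlike strength, only the difference between groups has a meaning here, not the sign of a value. Cxcl3 minus Cxcl2 differed by 1.07 between the same groups and Cxcl1 minus Cxcl3 by 0.78, again with no overlap. These are not separate results, because any 2 of the 3 differences fix the other. The share of all gene pairs without overlap was not counted, and 31.8% of the 11849 genes were called between these groups. A two-sided exact permutation test gave p = 0.1 for each of the 3, the smallest that 3 arrays against 3 allow, so no pair could pass the threshold, and 0.2 after adjustment over 6 tests; after sham surgery the 3 values were 0.7, 0.7 and 0.9. These pairs were compared after the signals had been seen.

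After sham surgery none of the 5 genes was called between knockout-labelled and wild-type lungs, beside 8.75% of the 11849 genes called in either direction. The differences were -0.55 ± 0.47 for Cxcl1, -0.24 ± 0.46 for Cxcl2, 0.17 ± 0.35 for Cxcl3, -0.16 ± 0.09 for Cxcl15 and 0.12 ± 0.50 for Cxcr2 (limma, adjusted p from 0.314 to 0.920). Without knockout-labelled sham array 3 the sign turned for 3 of them, to 0.29 for Cxcl2, -0.22 for Cxcl3 and -0.60 for Cxcr2.

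After CLP 2 of the 5 genes were called between the genotypes, beside 31.8% of the 11849 genes called in either direction. Cxcl1 was higher in knockout-labelled CLP lungs by 1.43 ± 0.47, or 2.69-fold (limma, adjusted p = 0.0379), and both other Cxcl1 probe sets were called too, at 1.51 ± 0.49 (adjusted p = 0.0335) and 1.12 ± 0.30 (adjusted p = 0.0149). Cxcl15 was lower by 0.28 ± 0.09 on the log2 scale (adjusted p = 0.0300). Cxcl3 differed by 0.65 ± 0.35, Cxcl2 by -0.43 ± 0.46 and Cxcr2 by 0.61 ± 0.50 (limma, adjusted p = 0.180, 0.519 and 0.377), and these were not called. Both calls were lost without knockout-labelled CLP array 2 or 3 or wild-type CLP array 1, 2 or 3, and that of Cxcl1 also without wild-type sham array 1 (highest adjusted p = 0.136 for Cxcl1 and 0.105 for Cxcl15). Without knockout-labelled CLP array 1, Cxcl3 was called too (0.99, adjusted p = 0.0465).

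By group mean, Cxcl1 ran in the order knockout-labelled CLP (3341 ± 1652), wild-type CLP (1113 ± 149), wild-type sham (163 ± 48.1) and knockout-labelled sham (125 ± 81.3, SD, n = 3 each). The sham groups were not separated by the test. Cxcl2 averaged 5804 ± 1980 in knockout-labelled CLP and 7440 ± 245 in wild-type CLP lungs, and 68.9 ± 50.4 and 73.7 ± 34.2 after sham surgery in the same order, with neither pair of genotypes separated. For Cxcl3 the means were 1222 ± 435 and 747 ± 133 after CLP, and 8.19 ± 5.92 and 6.24 ± 2.02 after sham surgery, again without a separation of the genotypes.

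Cxcl15 (1421404_at), the epithelial ligand, was bright on every array and was not called after CLP in either genotype. Signals were 8508, 7173 and 7267 in knockout-labelled CLP lungs, against 8351, 8182 and 6558 in knockout-labelled sham lungs. In wild-type lungs they were 9401, 9344 and 9107 after CLP, against 8657, 8696 and 8291 after sham surgery. Knockout-labelled CLP and sham values overlapped, whereas each wild-type CLP value was above each wild-type sham value by a small margin. The change was -0.01 ± 0.09 in knockout-labelled mice (95% interval -0.20 to 0.19) and 0.12 ± 0.09 in wild-type mice (-0.07 to 0.31), with adjusted p of 0.973 and 0.833 in limma. These intervals are narrow beside the rises of its 3 neighbours. With each array centred on its median the same changes were 0.22 and 0.23 and were not called, so the sign of the knockout-labelled change turned and that of the wild-type change did not.

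The lower Cxcl15 of knockout-labelled CLP lungs was a 1.22-fold difference, and its second probe set (1456428_at) gave -0.24 ± 0.16, which was not called (limma, adjusted p = 0.288). Summed signals of epithelial markers lay as follows beside it. The 7 alveolar type 2 markers summed to 44602 to 51726 in knockout-labelled CLP lungs, against 51134 to 52349 in wild-type CLP lungs. For the 8 club and airway markers the sums were 41196 to 49540, against 48002 to 48615. Their part in the Cxcl15 difference was not tested.

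Cxcl5 (1419728_at), also known as LIX, was dim. It had 19.7, 36.5 and 72.3 in knockout-labelled CLP lungs, against 25.2, 13.1 and 11.3 in knockout-labelled sham lungs. Wild-type signals were 11.3, 11.1 and 13.4 after CLP, against 11.2, 3.97 and 5.70 after sham surgery. It was above the array median on 2 of the 12 arrays, both of them knockout-labelled CLP arrays, and so was not tested. All 3 knockout-labelled CLP values were above the 3 wild-type CLP values, while knockout-labelled CLP and sham values overlapped. Between the CLP groups 31.8% of the 11849 genes were called, and the share without overlap was not counted. With no filter on low values, the difference between knockout-labelled and wild-type CLP lungs was 1.43 (limma, adjusted p = 0.0416), and the changes with CLP were 1.11 in knockout-labelled and 0.62 in wild-type mice (adjusted p = 0.109 and 0.837).

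The 5 ligands lie together on chromosome 5, within 147 kb that also hold Ppbp and Pf4, which encode the platelet chemokines pro-platelet basic protein and platelet factor 4. In the RefSeq annotation of GRCm38.p6 the order is Cxcl5 (start 90759298), Ppbp, Pf4, Cxcl3 (90786101), Cxcl15 (90794534), Cxcl1 (90891245) and Cxcl2 (90903899). The genes that rose in both genotypes were thus not a block: Cxcl15, which was not called, lies between Cxcl3 and Cxcl1. Pf4 was called in knockout-labelled mice, at 0.80 ± 0.21 (limma, adjusted p = 0.0136), a call lost without knockout-labelled CLP array 2, and stood at 0.11 in wild-type mice. Ppbp stood at 0.25 and 0.15 in the same order and was not called. The tested genes on either side were not called, with Rassf6 at -0.20 and Mthfd2l at 0.03 in knockout-labelled mice and at -0.08 and -0.11 in wild-type mice. Afm, Albfm1, Epgn and Ereg were not tested.

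**Figure D3:**
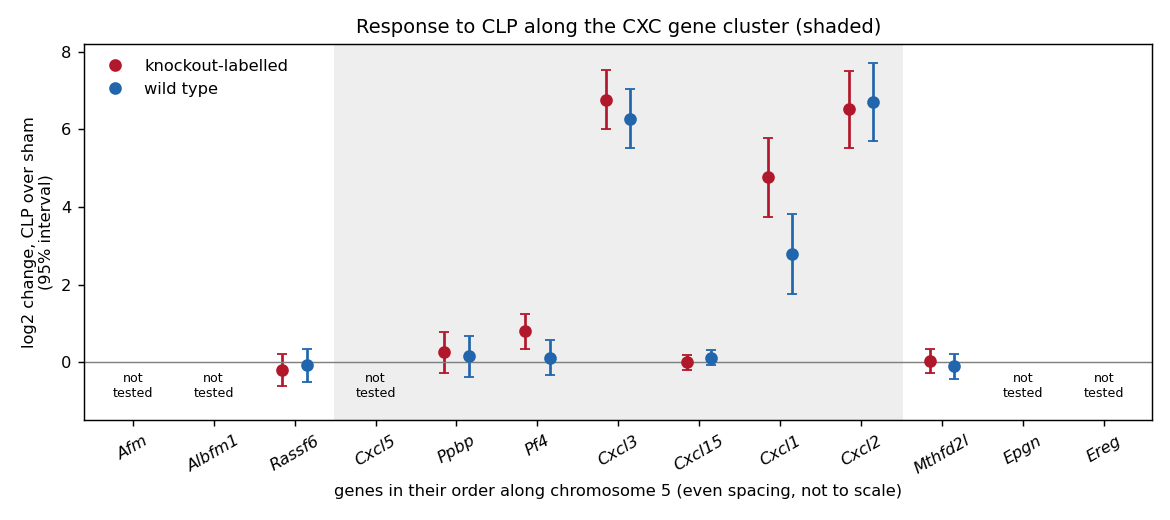
Log2 change after CLP over sham, with 95% intervals from limma (3 arrays a group), for genes in their order along chromosome 5, evenly spaced and not to scale, knockout-labelled left of wild type; the shaded part runs from Cxcl5 to Cxcl2. Cxcl3, Cxcl1 and Cxcl2 stand at 2.78 to 6.76, and Cxcl15, between Cxcl3 and Cxcl1, at -0.01 and 0.12.

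Cxcr2 (1421734_at), the receptor gene among the 6, was not called in any of the 5 comparisons. It had 205, 245 and 114 in knockout-labelled CLP lungs, against 30.2, 69.0 and 216 in knockout-labelled sham lungs. In wild-type lungs the signals were 128, 106 and 115 after CLP, against 63.0, 72.3 and 79.1 after sham surgery. The wild-type groups did not overlap, while knockout-labelled sham array 3 was above all 3 wild-type CLP arrays and above knockout-labelled CLP arrays 1 and 3. The change with CLP was 1.17 ± 0.50 in knockout-labelled mice (95% interval 0.10 to 2.24) and 0.68 ± 0.50 in wild-type mice (-0.39 to 1.75), with adjusted p of 0.0938 and 0.829 in limma. Without knockout-labelled sham array 3 the knockout-labelled change was 1.89 (adjusted p = 0.00110). With a model of the 2 wild-type groups alone, whose arrays lay closer together, the wild-type change of 0.68 was called (adjusted p = 0.0149).

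Neutrophil transcripts were followed beside Cxcr2. In bulk lung, fewer cells of a type and less RNA per cell cannot be told apart. Of 15 genes listed as markers of mature neutrophils, 11 had a probe set of 1 symbol, and their summed signal was 37500 to 43570 in knockout-labelled CLP lungs, against 10899, 15245 and 27757 in knockout-labelled sham lungs. In wild-type lungs it was 34342 to 37794 after CLP, against 9230 to 15635 after sham surgery. Knockout-labelled sham array 3, the highest of its group for Cxcr2, was also the highest of the 6 sham arrays for this sum, most of which came from S100a8 (13918 on that array) and S100a9 (10379), while for Il1r2 (81.5) it was the lowest of them. The sum of 8 alveolar macrophage markers was 8799 on that array and 6275 to 6571 on the other 5 sham arrays. Chil3, which that list shares with the list of granulocyte precursor markers below, was left out of both sums after its signals had been seen: it was 6048 on that array and 610 to 1377 on the other 5. Called higher after CLP were 9 of the 11 neutrophil markers in knockout-labelled and 8 of 11 in wild-type mice, and 11 and 9 without that array. Without wild-type CLP array 1, 3 of the 11 were called in wild-type mice. The part of these transcripts in the Cxcr2 values was not tested.

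Markers of granulocyte precursors taken as a sum, like Cxcl1, were higher on each knockout-labelled CLP array than on each wild-type CLP array. The summed signal of 8 such genes, mostly Camp, Ngp, Ltf and Lcn2, was 18742 to 24765 in knockout-labelled CLP lungs and 1521, 1763 and 2578 in knockout-labelled sham lungs. It was 5235 to 7196 in wild-type CLP lungs and 1809 to 2407 in wild-type sham lungs. Within knockout-labelled sham lungs the order of the sum was not that of Cxcl1, whose lowest value was on array 3. Genes of the sum differed in this. Camp was also lowest on array 3 (38.7, against 122 and 134), while Ngp was lowest on array 1 (261, against 405 and 336). The primary granule genes of the list, Mpo, Elane, Prtn3 and Ctsg, were below the filter. The 5 genes of the list that were tested, Chil3 among them, were called higher in knockout-labelled than in wild-type CLP lungs. Of the 11 mature neutrophil markers, 2 were called higher and 2 lower between these groups, beside 31.8% of the 11849 genes called in either direction. The share of all genes without overlap between these groups was not counted. The 8 alveolar macrophage markers summed to 7922 to 9083 in knockout-labelled CLP and 6515 to 6687 in wild-type CLP lungs, and Chil3 alone was 5827 to 6276 and 905 to 1017 in the same order. The part of these transcripts in the Cxcl1 difference between the CLP groups was not tested.

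**Figure D4:**
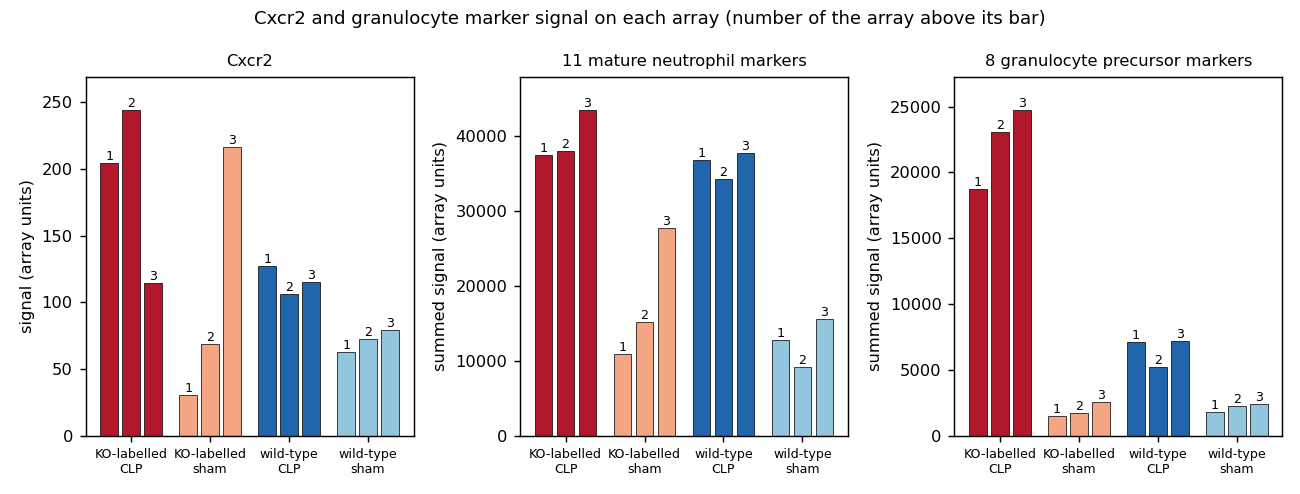
Signal of Cxcr2 and summed signals of 11 mature neutrophil markers and 8 granulocyte precursor markers (Chil3 left out) on each array, from a base of 0, with the array's number over its bar. Knockout-labelled sham array 3 stands out among sham arrays for Cxcr2 (216) and the neutrophil sum (27757). Its precursor sum (2578) is close to that of wild-type sham array 3 (2407). The precursor sum is 18742 to 24765 in knockout-labelled CLP and 5235 to 7196 in wild-type CLP lungs.

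Like most genes tested, these genes varied more between arrays of the knockout-labelled groups, so this is not particular to them. The SD of the log2 values was larger in knockout-labelled CLP than in wild-type CLP lungs for 5 of the 5 genes tested, beside 73.4% of the 11849 genes, and likewise in sham lungs for 5 of 5, beside 72.7%. In knockout-labelled CLP lungs the highest signal was 3.08 times the lowest for Cxcl1, 1.98 for Cxcl2 and 2.12 for Cxcl3. The same ratios in wild-type CLP lungs were 1.31, 1.07 and 1.43. Array 1 of knockout-labelled CLP was the lowest of its group for Cxcl1, Cxcl2, Cxcl3 and Cxcl5 and the highest for Cxcl15. On that array the summed signal of 9 cytokines listed as inducers of these chemokines was 3523, against 10308 and 11105 on arrays 2 and 3.

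For each of the 5 genes the 3 other genes with the most similar profile were found, by the root mean square difference of log2 values over the 12 arrays after each gene was centred on its own mean, among 11844 genes. For Cxcl1 these were Camp (0.57), the precursor of an antimicrobial peptide of granulocytes, Il1r2 (0.58), the decoy receptor of interleukin-1, and Ngp (0.66), a neutrophil granule gene. Camp had 3625, 4911 and 4102 in knockout-labelled CLP lungs, against 1308, 926 and 1321 in wild-type CLP lungs, which is the same side as for Cxcl1. Ngp was on that side too (6657, 8046 and 8700, against 2497, 2051 and 2717). The Il1r2 values overlapped (1546, 2520 and 2112, against 1894, 1044 and 1667). These genes were picked for their likeness to Cxcl1 on the same arrays, so a shared side is no separate support. The genes nearest to Cxcl2 and to Cxcl3 were the same 3, Acod1 (0.82 and 0.72), which makes itaconate in activated macrophages, Ccl3 (1.49 and 1.32), a chemokine of the CC class, and Clec4e (1.66 and 1.18), a receptor for microbial glycolipids. Mvb12b, Mzt1 and Ap1b1 (0.06 to 0.07) were nearest to Cxcl15, which varied little, and Ms4a6c, Zfp119b and BC002059 (0.37 to 0.40) to Cxcr2.

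The pathway around these genes was followed in 10 lists with 82 genes tested. In knockout-labelled mice 46 were called higher after CLP and 5 lower, that is 56.1% higher beside 11.4% of all genes. In wild-type mice 11 were called higher and none lower, 13.4% beside 1.1%. Of the 46, 34 were called whichever array was left out, and of the 11, 4 were, namely Il1b, Tlr2, Nfkbiz and Mmp9. The other wild-type calls, those of Arrb2, Bcl3, Mmp8, Nfkbia, Tnfaip3, Zc3h12a and Zfp36, were each lost without wild-type CLP array 1, without wild-type CLP array 3 or without wild-type sham array 1, and most also without other wild-type arrays. Both genotypes shared 10 of these genes, which is 10 of the 46 and 10 of the 11. A call in 1 genotype alone does not show that the responses differed. For the difference of responses, 4.99% of all genes were called in either direction. Of the listed genes, 3 of 12 sensors and adaptors and 2 of 7 other receptors were called higher for it. So were 1 of 7 cytokines and 1 of 8 adhesion genes. Called lower were 2 of 15 signalling genes and 1 of 9 presenting or cleaving genes, and the other lists had no such call. The lists were chosen with earlier results of these data known, so these shares describe the lists and support nothing beyond them.

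Cytokines listed as inducers of the ligands were called in 5 of 7 cases in knockout-labelled and 1 of 7 in wild-type mice, with medians of 3.34 and 2.06. Whether each of them induces the ligands was not tested. Il1b, which encodes interleukin-1 beta, rose by 2.82 ± 0.37 in knockout-labelled and 3.05 ± 0.37 in wild-type mice (limma, adjusted p = 0.000240 and 0.00138). Il6 rose by 6.82 in knockout-labelled mice (adjusted p = 5.97e-05) and had a change of 2.83 in wild-type mice (adjusted p = 0.0789), and the difference of the responses was called at 3.99 (adjusted p = 0.0354), and in 3 of the 12 fits with an array left out. Csf3, the granulocyte growth factor gene, rose by 5.53 in knockout-labelled mice and Il1f9, an interleukin-36, by 3.52, while Tnf, at 3.34, was called at an adjusted p of 0.0469 and in 2 of those 12 fits.

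Sensors and adaptors upstream of the ligands had 8 of 12 genes called higher and 1 lower in knockout-labelled mice, and 1 of 12 higher in wild-type mice. Tlr2, a receptor for bacterial lipoproteins, rose by 2.45 and 2.02 in that order of genotypes, and was the gene called in both. Myd88, the adaptor of Toll-like and interleukin-1 receptors, rose by 1.46 in knockout-labelled mice, Tnfrsf1b by 2.37 and Tnfrsf1a by 0.81, and Il17rc fell by 0.90. Of the NF-kappaB factors and inhibitors, 8 of 9 were called in knockout-labelled and 4 of 9 in wild-type mice, all higher. The 4 were Nfkbiz (2.69 in knockout-labelled and 2.58 in wild-type mice), Tnfaip3 (2.63 and 2.13), Bcl3 (2.97 and 1.48) and Nfkbia (0.49 and 0.54), which encode inhibitors or co-regulators of NF-kappaB. The list had 1 call in wild-type mice without wild-type CLP array 1, and 5 in knockout-labelled mice without knockout-labelled CLP array 2. Its median change was 1.25 in knockout-labelled and 1.24 in wild-type mice, and 0 of 9 genes were called for the difference of responses.

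Among the regulators of message decay, 2 of 7 were called in each genotype, and they were the same 2. Zfp36, whose protein tristetraprolin destabilises AU-rich messages, rose by 1.67 in knockout-labelled and 1.59 in wild-type mice, and Zc3h12a, which encodes the RNase regnase-1, by 2.86 and 2.17. The 5 others, Elavl1, Hnrnpd, Khsrp, Zfp36l1 and Zfp36l2, were not called.

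Downstream of the receptor, 8 of 15 signalling genes were called higher and 2 lower in knockout-labelled mice, and 1 higher in wild-type mice. Pik3r5, the regulatory subunit of a G-protein-coupled phosphoinositide 3-kinase, rose by 2.25 in knockout-labelled mice, Rac2, a GTPase of blood cells, by 1.83, and Gnai3, an inhibitory G-protein subunit, by 0.79. The 2 that fell there were Arrb1, by 0.81, and Lasp1, by 0.56. Arrb2, an arrestin that turns off such receptors, rose by 0.78 in wild-type mice (limma, adjusted p = 0.0130) and stood at 0.17 in knockout-labelled mice (adjusted p = 0.335). The difference of these responses was not called (-0.61, adjusted p = 0.0731).

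Of the other CXC chemokines, 2 of 6 were called higher and 1 lower in knockout-labelled mice and 0 of 6 in wild-type mice. Cxcl10, an interferon-induced ligand of CXCR3, rose by 3.16 in knockout-labelled mice and had a change of 2.11 in wild-type mice (limma, adjusted p = 0.00527 and 0.285), Cxcl17 rose by 0.52 in knockout-labelled mice, and Cxcl12 fell by 0.77 there, a call kept in 2 of the 12 fits with an array left out. Among other receptors, 4 of 7 were called higher in knockout-labelled mice and 0 of 7 in wild-type mice. Ackr1, the endothelial receptor that binds inflammatory chemokines and carries them across the vessel wall, rose by 3.34 ± 0.42 in knockout-labelled mice and stood at -0.03 ± 0.42 in wild-type mice. The difference of its responses was called, at 3.37 ± 0.60 (limma, adjusted p = 0.0106), and so it was in each of the 12 fits with an array left out.

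Adhesion genes were called higher in 4 of 8 cases in knockout-labelled mice and in 0 of 8 in wild-type mice. They were Selp (2.91), the endothelial selectin that slows rolling neutrophils, Itgam (1.84) and Itgb2 (1.28), which together form the integrin Mac-1, and its ligand Icam1 (0.85). Of the genes that present or cleave chemokines, 4 of 9 were called higher and 1 lower in knockout-labelled mice, and 2 of 9 higher in wild-type mice. The neutrophil collagenase gene Mmp8 rose by 2.73 and 2.87 and Mmp9 by 0.74 and 1.65 in that order of genotypes.

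**Figure D5:**
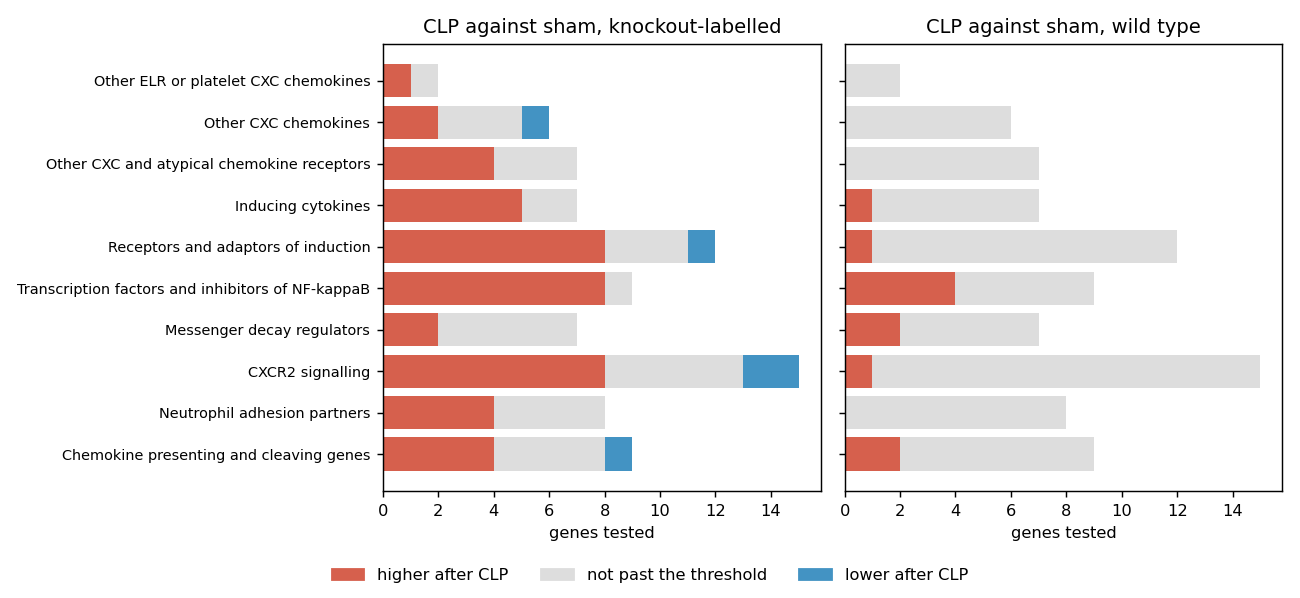
Number of genes called higher, not past the threshold or called lower after CLP (limma, adjusted p under 0.05) in the 10 pathway lists, knockout-labelled left and wild type right. In knockout-labelled mice 46 of 82 genes were called higher and 5 lower, and in wild-type mice 11 higher and none lower. The difference of the responses is not shown.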

How the data were processed

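The 12 whole-lung samples were grouped by the genotype and surgery in their labels. The authors deposited linear signal intensities per probe set, and the submitters' processing notes list MAS5, GCOS and the Affymetrix Expression Console with no versions or roles. The deposited table held 45101 probe sets with no detection calls. The number of arrays limits the precision.

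After 64 control probe sets were left out, 3.47 (10% of the median array median) was added to each signal before log2 was taken. A probe set was tested if above its array's median on at least 3 arrays, which left 24574. Of all probe sets, 34945 carried 1 symbol, 932 several and 9160 none, and only the first were named. The comparisons were CLP against sham within a genotype, the difference between both responses, and knockout-labelled against wild-type after each surgery. They were contrasts of 1 model with 4 group means in limma 3.58.1 (R 4.3.3), moderated with an intensity trend, with Benjamini-Hochberg adjustment over all probe sets tested in a contrast. The fit was tested on simulated data with 1 spread per probe set for all 4 groups. It was not tested under the unequal spread seen between these groups.

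Named are the 6 genes, Tac1, up to 4 genes of each pathway list with the smallest p, others needed to describe a result, the 3 genes with the most similar profile to each gene, and the neighbours in the cluster. The genes and lists were chosen with earlier results of these data known. RefSeq tables of GRCm38.p6 gave positions and promoters; proteins were not analysed here. Alternatives were each array left out, quantile normalisation, centring on the array median, a floor or a pseudocount of 50%, no filter, a filter of 9 arrays, robust moderation or none by trend, a replicate block, array weights, only the groups compared, and averaging the probe sets of a gene. Marker sums without Chil3 were added after the data had been seen.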

Additional observations from a re-analysis of the deposited data

How the results depend on the processing

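Of 24 alternatives (12 settings and 12 left-out arrays), none changed the calls of Cxcl2 and Cxcl3 after CLP in either genotype wherever they were tested (Cxcl3 was not tested under the filter of 9 arrays), and none changed the Cxcl1 call in knockout-labelled mice. Of the 2 genes called between genotypes after CLP, 1 was kept with quantile normalisation, centred arrays or averaged probe sets of a gene (Cxcl1) and 1 with the replicate block (Cxcl15), and 0 without the intensity trend. With no filter both were lost and the 1 gene called was Cxcl5, array weights gave 4 genes, and 0 to 3 were called with an array left out. The 0 genes called for the difference of responses became 3 with array weights (Cxcl1, Cxcl15 and Cxcr2), and 0 to 1 with an array left out. Cxcl15 after CLP in knockout-labelled mice turned to 0.22 with centred arrays and 0.028 with the mean of its probe sets, and ran from -0.116 to 0.058 with an array left out. With array weights the sham difference between genotypes turned to 0.22 for Cxcl2, -0.18 for Cxcl3 and -0.47 for Cxcr2. With an array left out it ran from -0.77 to 0.29, -0.22 to 0.49 and -0.60 to 0.76 for the same genes, and the difference of responses from -0.72 to 0.35 for Cxcl2 and -0.15 to 1.21 for Cxcr2. The causes were not tested. Deviations of same-numbered arrays of different groups correlated at -0.10 to 0.12, with 2 of 18 pairs over 0.1. Those of arrays with unlike numbers correlated at -0.14 to 0.15, with 1 of 36 pairs over 0.1. The labels do not say that the numbers pair samples, and with 3 arrays a group these correlations cannot decide it. The replicate block is given for its count alone. Over all 24574 probe sets, 7172 were called after CLP in knockout-labelled mice and 233 in wild-type mice (2084 at an unadjusted p under 0.05), against 2669 and 1281 when only the groups compared were fitted and 10287 and 1308 with array weights, and 52 in wild-type mice without wild-type CLP array 1. The 995 called for the difference of responses became 5834 with array weights, and the 2050 called between sham groups 4071. Centring on the array median moved the median change in knockout-labelled mice to 0.10, against -0.12 as deposited, and the share of calls that were higher to 70.4%, against 35.6% (45.5% with quantile normalisation); for the difference of responses the share moved to 66.4%, against 41.8%, and between sham groups to 39.1%, against 53.7%. The low signals of Cxcl3 in sham lungs and of Cxcl5 limit what their folds can show.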
